A study of Mus musculus with 6 samples.

Results

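The genes Pla2g3, Tspan4, Ighm and Phactr3 were followed in the hippocampus of mice given CORT every day. They are 4 of the 2404 genes listed in the table, and all 4 were among the 2241 genes with enough signal to be tested. They were chosen because their expression was much higher in the CORT libraries than in the vehicle libraries, with no numeric threshold stated. The CORT against vehicle values of these 4 genes are therefore a description and carry no test. Hippocampal RNA was sequenced in 3 libraries from male C57BL/6 mice injected subcutaneously with CORT (40 mg/kg) on each of 36 days. Another 3 libraries were from male C57BL/6 mice injected in the same way with the vehicle of DMSO, Tween-80 and water. Whether mice were pooled within a library is not stated. The mice were 7 to 8 weeks old when divided at random into groups. CORT is corticosterone, the main glucocorticoid of rodents, although the treatment label of these samples reads cortisone. Expression is given as TPM, a level scaled for transcript length and for the total of each library. On this scale levels were set side by side between genes and between libraries. Such comparisons depend on the estimated transcript length and on that total.

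Glucocorticoids act mainly through the glucocorticoid receptor, a transcription factor that enters the nucleus once it has bound the hormone and then raises or lowers the transcription of its target genes. The hippocampus is rich in this receptor. The products of the 4 genes work in different places. Pla2g3 encodes a secreted group III phospholipase A2, which cuts a fatty acid from membrane phospholipids and leaves a lysophospholipid. Tspan4 encodes a tetraspanin, a protein that spans the membrane 4 times, gathers other membrane proteins into domains and is a defining component of migrasomes, the vesicles that migrating cells leave behind. Ighm encodes the constant region of the IgM heavy chain, made by B lymphocytes and plasma cells. Phactr3 (also called scapinin) encodes a phosphatase and actin regulator, which binds protein phosphatase 1 and actin and is found mainly in the nervous system.

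All 2404 listed genes had passed the authors' own p threshold on these libraries, so a low p for any of them is no independent evidence. Together the listed genes held 30.1% to 31.5% of all TPM in CORT libraries and 29.2% to 29.9% in vehicle libraries. TPM keeps no read number, so the depth behind each value is unknown. The labels and methods name biological replicates without saying more of their origin, and the spread between replicates is the spread between these libraries. The libraries were made from whole tissue, where fewer cells of a type and less RNA per cell cannot be told apart. None of the 8 neuron markers looked for is in the table, so the neuronal identity of the tissue was not checked with them, while 3 of 5 markers of CA pyramidal cells and 2 of 5 of dentate granule cells are listed, with summed levels of 293 to 311 TPM in CORT and 293 to 313 TPM in vehicle for the CA markers, and of 82.0 to 85.0 TPM in CORT and 94.9 to 116 TPM in vehicle for the dentate markers. The CA markers went opposite ways beneath these sums, Wfs1 being lower with 97.4 ± 3.59 TPM in CORT and 131 ± 8.72 TPM in vehicle, and Bok higher with 147 ± 10.8 TPM in CORT and 125 ± 3.71 TPM in vehicle (limma adjusted p = 0.00186 and 0.0244). Of the dentate markers, C1ql2 was lower, with 73.1 ± 1.56 TPM in CORT and 95.6 ± 10.4 TPM in vehicle (limma adjusted p = 0.0077). Dsp went the other way, with 10.2 ± 0.0404 TPM in CORT and 8.83 ± 0.315 TPM in vehicle, but missed the threshold (limma adjusted p = 0.0931).

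The largest relative difference was that of Pla2g3 (ENSMUSG00000034579), the secreted phospholipase. Pla2g3 was at 8.31, 6.45 and 6.16 TPM in the CORT libraries, against 0.81, 1.00 and 0.87 TPM in the vehicle libraries. The gene was thus near the detection filter of 1 TPM in every vehicle library and well above it in every CORT library, and the groups did not overlap. The means were 6.97 ± 1.17 TPM in CORT and 0.893 ± 0.0971 TPM in vehicle (SD, n = 3 each), a ratio of 7.81. Setting the lowest CORT library against the highest vehicle library gave a ratio of 6.16, and the opposite extremes gave 10.3. As a difference of log2(TPM + 1) this was 2.07 (SE 0.14), a scale on which a gene of low TPM shows less than its full ratio. With a smaller pseudocount of 0.1 it was 2.82. The filter asked for 1 TPM or more in 3 or more libraries, and the 3 CORT libraries alone took Pla2g3 past it. The vehicle library at 1.00 TPM was not needed for this.

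Tspan4 (ENSMUSG00000025511), the tetraspanin, was at 73.9, 78.48 and 71.6 TPM in the CORT libraries, against 27.04, 23.94 and 22.37 TPM in the vehicle libraries. Both groups were tight, and a wide gap separated them. The means were 74.7 ± 3.50 TPM in CORT and 24.45 ± 2.38 TPM in vehicle (SD, n = 3 each), a ratio of 3.05 that ran between 2.65 and 3.51 over the extreme pairs of libraries. The log2 difference was 1.57 (SE 0.08). The replicate SD of Tspan4 was 4.69% of the mean in CORT and 9.72% in vehicle, close to the medians of 6.57% and 8.70% over the tested genes.

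Ighm (ENSMUSG00000076617), the IgM heavy chain, was at 43.27, 46.21 and 33.62 TPM in the CORT libraries, against 16.09, 12.53 and 9.69 TPM in the vehicle libraries. Every CORT library was again above every vehicle library, but this gene varied most within the vehicle group. The means were 41.0 ± 6.59 TPM in CORT and 12.8 ± 3.21 TPM in vehicle (SD, n = 3 each), and the SD came to 16.1% of the mean in CORT and 25.1% in vehicle. The ratio of means was 3.21 and ran between 2.09 and 4.77 over the extreme pairs of libraries, and the log2 difference was 1.62 (SE 0.18).

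Phactr3 (ENSMUSG00000027525), the phosphatase and actin regulator, was the most abundant of the 4 genes. It was at 215.82, 208.2 and 171.48 TPM in the CORT libraries, against 93.63, 94.3 and 102.7 TPM in the vehicle libraries. The vehicle libraries lay close together, and the CORT libraries spread more widely above them without overlap. The means were 198.5 ± 23.7 TPM in CORT and 96.9 ± 5.05 TPM in vehicle (SD, n = 3 each). The ratio of means was 2.05, between 1.67 and 2.31 over the extreme pairs, and the log2 difference was 1.02 (SE 0.09). In absolute terms this was the widest gap, 102 TPM, against 50.2 TPM for Tspan4, 28.3 TPM for Ighm and 6.08 TPM for Pla2g3.

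**Figure D1:**
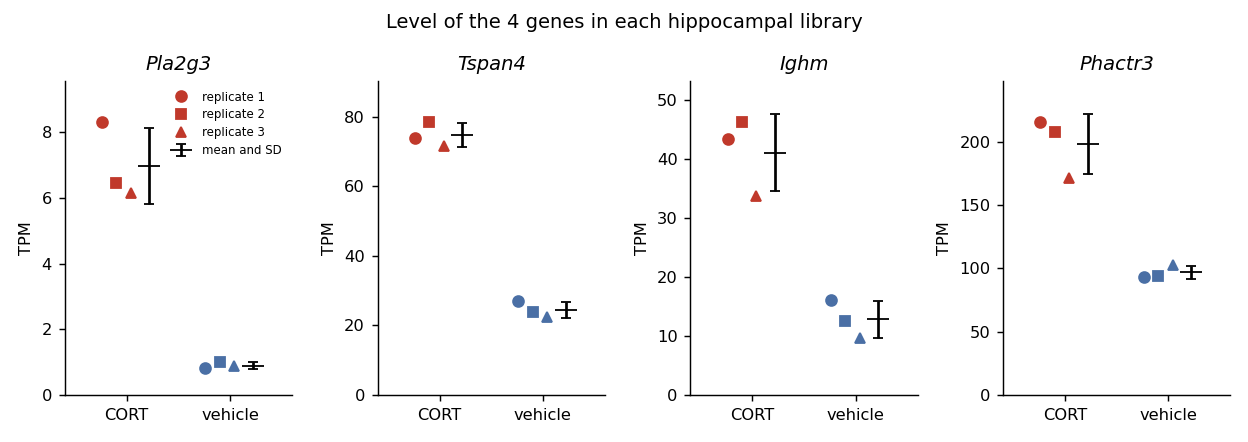
Level in TPM (linear axes starting at 0, 1 panel per gene) of Pla2g3, Tspan4, Ighm and Phactr3 in the 3 CORT libraries and the 3 vehicle libraries, with symbols for the replicates and black bars for the mean and SD. In each panel the lowest CORT library, such as the 6.16 TPM of Pla2g3 or the 171.48 TPM of Phactr3, lies above the highest vehicle library, 1.00 TPM and 102.7 TPM for these genes.

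The order of the levels was Phactr3, Tspan4, Ighm and Pla2g3 in each of the 6 libraries, and no neighbours in that order overlapped within a group. Among the 2241 tested genes, Phactr3 ranked 175 by mean TPM in CORT and 339 in vehicle, Tspan4 ranked 440 in CORT and 1036 in vehicle, Ighm ranked 740 in CORT and 1431 in vehicle, and Pla2g3 ranked 1769 in CORT and 2215 in vehicle. By ratio the order was different. Pla2g3 came first and Phactr3 last, while the ratios of Ighm and Tspan4, 3.21 and 3.05, lay within each other's range over library pairs.

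A ratio of means of at least 2 was shown by 4.46% of the tested genes, or 100 genes, and a separation in which every CORT library exceeded every vehicle library by 35.4% of them. The 4 genes were chosen on this contrast, so nothing is read from their meeting both. By log2 difference Pla2g3 ranked 6, Ighm 12, Tspan4 13 and Phactr3 50 of the 2241 genes. The genes directly above and below Pla2g3 in that order were Sgk3, a serine/threonine kinase (16.4 ± 3.37 TPM in CORT and 3.14 ± 0.683 TPM in vehicle), and Setdb2, a histone methyltransferase family member (16.95 ± 1.20 TPM in CORT and 3.47 ± 1.21 TPM in vehicle). Ada, the adenosine deaminase, stood just above Ighm with a log2 difference of 1.72, and Lrg1, a secreted leucine-rich glycoprotein, just below Tspan4 with 1.57. Lrg1 shows that a similar log2 difference could come with far noisier libraries. It was at 5.47, 9.45 and 10.47 TPM in the CORT libraries, against 4.91, 0.66 and 1.99 TPM in the vehicle libraries. Crispld2, a secreted protein gene, and Fzd2, a Wnt receptor, stood directly above and below Phactr3 with log2 differences of 1.02 and 1.00. Both had far lower levels than Phactr3, 3.18 ± 0.244 TPM and 15.4 ± 1.86 TPM in CORT, against 1.06 ± 0.201 TPM and 7.24 ± 1.47 TPM in vehicle (SD, n = 3 each).

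**Figure D2:**
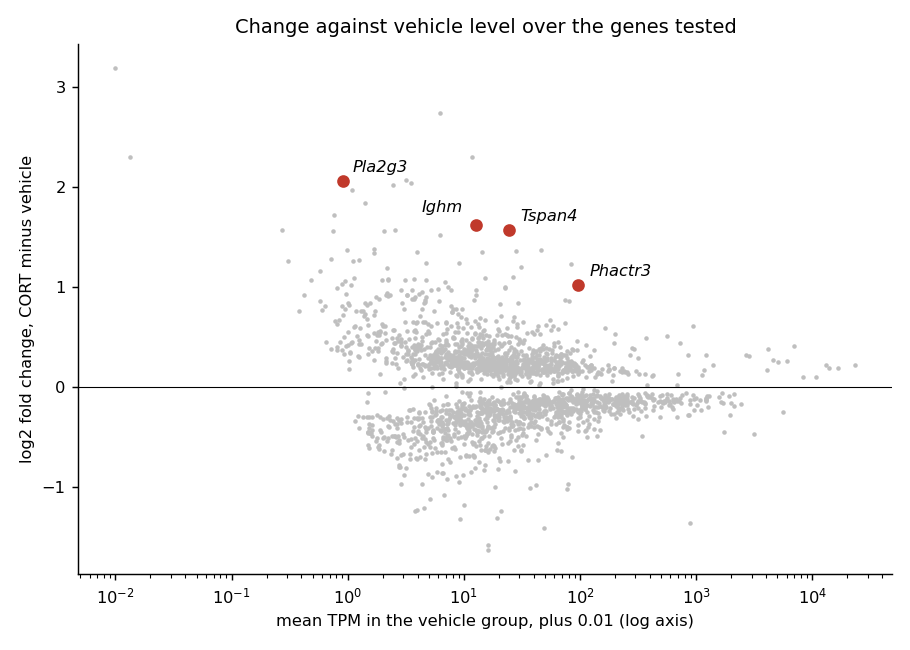
Log2 fold change of CORT over vehicle (vertical axis, from log2(TPM + 1)) against the mean TPM in the vehicle group plus 0.01 (log axis) for the 2241 tested genes in grey, with Pla2g3, Ighm, Tspan4 and Phactr3 in red. The 4 genes lie on the upper edge of the cloud over a range of vehicle levels, at 0.893, 12.8, 24.45 and 96.9 TPM.

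The order of libraries within the CORT group rests on values that the choice used, and is only described. The third CORT library gave the lowest CORT value of each of the 4 genes. This was also the commonest place for the lowest CORT value among the other 575 genes that passed the test as higher in CORT, of which 253, or 44.0%, were lowest there, compared with 30.4% in the first and 25.6% in the second CORT library. Of the genes next to them in the order of log2 difference, Sgk3, Ada and Crispld2 were lowest there too. Setdb2, Lrg1 and Fzd2 were not. Tspan4 and Ighm ordered their libraries alike in both groups, with the second CORT library highest and the first vehicle library highest. After the group means were taken away, Pearson's r between Tspan4 and Ighm was 0.947 over the 6 libraries, against 0.613 between Pla2g3 and Phactr3 and between -0.158 and 0.216 for the remaining pairs. These values are a description, since the points share the same libraries and few degrees of freedom are left once the means are removed.

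Genes with a pattern most like each of the 4 were ranked by Pearson's r of log2(TPM + 1) over the 6 libraries. Because the libraries form a CORT and a vehicle group, such an r mostly reflects a clean group difference, and many genes reach it. An r of at least 0.95 was found with 153 of the other 2240 genes for Pla2g3, 129 for Tspan4, 59 for Ighm and 167 for Phactr3. The 5 genes nearest to Pla2g3 were Fbf1, Ip6k2, Lurap1l, Abhd15 and Lonrf3 (r of 0.995 to 0.992). Those nearest to Tspan4 were Castor1 (r of 0.996), Tlr7, Depp1, Ift74 and Maml2, and those nearest to Ighm were Sh2b2 (r of 0.994), Scrt2, Pcdha1, Itgad and Ift74. The nearest to Phactr3 were Ddc, the aromatic amino acid decarboxylase (r of 0.998), Arrdc2, mt-Nd1, F3 and Mafk. After the group means were removed, Zfp37 was nearest to Pla2g3, Scrt2 to Tspan4, Pkig to Ighm and Tmem184c to Phactr3, and 10 to 20 genes reached an r of at least 0.95 with each.

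The other genes of the families and pathways to which the 4 belong were read from 6 lists. Over all tested genes, 25.8% passed the test as higher in CORT and 24.7% as lower (limma, Benjamini-Hochberg adjusted p under 0.05, 579 and 554 genes), with a median log2 fold change of 0.05. Only members that the authors had listed could be read, and the rest of each list was not analysed here.

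Of 28 other phospholipase A2 genes, 3 were in the table, none of them a secreted enzyme. Pnpla2, the adipose triglyceride lipase that starts the breakdown of stored fat, rose. It was at 53.16, 45.67 and 39.43 TPM in the CORT libraries, against 26.49, 20.84 and 20.49 TPM in the vehicle libraries, a log2 fold change of 1.00 (SE 0.13, limma adjusted p = 0.000834) with no overlap between groups. Pnpla7, a lysophospholipase, fell, with 10.1 ± 0.452 TPM in CORT and 14.2 ± 1.13 TPM in vehicle (SD, n = 3 each), a log2 fold change of -0.45 (limma adjusted p = 0.0077). Pnpla8, an intracellular calcium-independent phospholipase, gave 47.88, 43.72 and 42.03 TPM in CORT against 47.35, 42.8 and 41.67 TPM in vehicle and did not pass the test (limma adjusted p = 0.818). The products of phospholipase A2, free fatty acids such as arachidonic acid and lysophospholipids, feed eicosanoid synthesis. Of 48 genes of these pathways 3 were listed, and 1 rose. Alox12b, a lipoxygenase best known from the epidermis, was at 15.27, 17.82 and 13.17 TPM in CORT, against 8.09, 7.79 and 9.74 TPM in vehicle (log2 fold change 0.78, SE 0.13, limma adjusted p = 0.00245). Mboat2, a lysophospholipid acyltransferase, and Lta4h, the leukotriene A4 hydrolase, missed the threshold with log2 fold changes of 0.25 and -0.18 (limma adjusted p = 0.0508 and 0.066). The median log2 fold change was 0.02 for the first list and 0.25 for the second.

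Of 36 tetraspanin and partner genes besides Tspan4, 9 were in the table, of which 1 rose, 3 fell and 5 did not pass the test, with a median log2 fold change of -0.14. Tspan18 rose, with 20.3 ± 0.691 TPM in CORT and 15.6 ± 2.21 TPM in vehicle (log2 fold change 0.37, limma adjusted p = 0.0239). Tspan14, a partner of the protease ADAM10, fell by 0.30 on the log2 scale (limma adjusted p = 0.0214), Igsf8, an immunoglobulin-domain partner of tetraspanins, fell by 0.15 (limma adjusted p = 0.0333), and Tspan7, an abundant neuronal tetraspanin, fell by 0.11 (limma adjusted p = 0.046). Tspan7 was by far the most abundant of them at 1123.6, 1138.55 and 1131.19 TPM in the CORT libraries, against 1249.45, 1220.64 and 1200.82 TPM in the vehicle libraries. Each of these 4 calls was lost when certain libraries were left out, that of Tspan7 without any of the 6 libraries (limma adjusted p up to 0.109), those of Tspan18 and Tspan14 without 3 each (up to 0.0702 and 0.0788) and that of Igsf8 without 4 (up to 0.106). Quantile normalization also ended those of Igsf8 and Tspan7 (limma adjusted p = 0.0755 and 0.252). With a trend on GC content removed, the log2 fold change of Igsf8 was -0.04 and no longer passed (limma adjusted p = 0.466), whereas that of Tspan7 was -0.30 and passed (limma adjusted p = 0.0081). Tspan4 was chosen for its large difference, so its size beside these genes follows from that choice.

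Few genes of the Ighm lineage were in the table. Of the 41 other immunoglobulin and B-lineage genes looked for, including the light chains, the J chain and the B-cell receptor partners Cd79a and Cd79b, only Blnk, an adaptor of B-cell receptor signalling, was listed. Blnk was lower in CORT, at 2.42, 1.90 and 2.83 TPM in the CORT libraries, against 4.50, 3.14 and 3.82 TPM in the vehicle libraries (log2 fold change -0.51, SE 0.16, limma adjusted p = 0.0276). Its call was lost without any 1 of 4 libraries, the first CORT, the second CORT, the first vehicle and the third vehicle library (limma adjusted p up to 0.0873). None of the 11 markers of B and plasma cells, the 11 of T and NK cells, the 10 of blood and the 6 of border macrophages was in the table, so their levels were not analysed here. Of 12 microglia markers 6 were listed, and 4 fell and 1 rose, with summed levels of 104 to 133 TPM in CORT and 158 to 176 TPM in vehicle. Of 8 endothelial markers 7 were listed and 5 fell, with summed levels of 53.0 to 55.6 TPM in CORT and 93.8 to 99.9 TPM in vehicle. Among 7 choroid plexus markers only Folr1 was listed, at 3.73, 2.10 and 22.52 TPM in the CORT libraries, against 1.95, 1.33 and 3.20 TPM in the vehicle libraries. The high Folr1 library was the third CORT library. That library had the lowest CORT value of each of the 4 genes, and of 44.0% of the other genes called higher. Of 7 meningeal fibroblast markers 2 were listed, and neither passed the test. Their summed levels were 2.33, 2.28 and 2.12 TPM in the CORT libraries, against 8.69, 3.77 and 2.64 TPM in the vehicle libraries. These sums were lower in CORT, unlike Ighm, but ordered the vehicle libraries as Ighm did. The part of these cell types in the Ighm and Blnk values was not tested.

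The paralogue Phactr4 and 2 glycogen-targeting subunits of protein phosphatase 1 rose. Of 43 other genes of the PHACTR family and of protein phosphatase 1, 5 were in the table, 3 rose and none fell, with a median log2 fold change of 0.59. Phactr4, the paralogue that also binds protein phosphatase 1 and actin, was at 8.01, 9.04 and 9.46 TPM in the CORT libraries, against 4.40, 3.60 and 5.68 TPM in the vehicle libraries (log2 fold change 0.84, SE 0.15, limma adjusted p = 0.00309). Its groups did not overlap, and its level in CORT was far below that of Phactr3. Ppp1r3c and Ppp1r3g, which target protein phosphatase 1 to glycogen, rose too. Ppp1r3c had 37.56, 36.61 and 33.95 TPM in CORT, against 23.77, 21.12 and 26.18 TPM in vehicle (log2 fold change 0.59, SE 0.09, limma adjusted p = 0.00196). Ppp1r3g had 11.7, 10.99 and 11.62 TPM in CORT, against 7.73, 6.10 and 7.15 TPM in vehicle (log2 fold change 0.64, SE 0.11, limma adjusted p = 0.00253). These 3 calls held without each library in turn. The catalytic subunit Ppp1cc and the actin-binding subunit Ppp1r9a (neurabin) missed the threshold with log2 fold changes of -0.13 and 0.18 (limma adjusted p = 0.080 and 0.0907), although Ppp1cc passed as lower with the GC trend removed (limma adjusted p = 0.0269).

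PHACTR proteins carry RPEL motifs that bind actin monomers, as do the coactivators of serum response factor encoded by Mrtfa and Mrtfb. Of 32 genes of actin dynamics and this pathway 11 were listed, 5 rose and 1 fell, with a median log2 fold change of 0.22. Mrtfa was at 66.08, 66.53 and 66.03 TPM in the CORT libraries, against 45.19, 43.81 and 47.89 TPM in the vehicle libraries, a narrow spread around a log2 fold change of 0.53 (SE 0.06, limma adjusted p = 0.000579). Gsn, the actin-severing protein gelsolin, had 77.4 ± 4.24 TPM in CORT and 50.5 ± 9.14 TPM in vehicle (log2 fold change 0.62, SE 0.12, limma adjusted p = 0.0058). Mrtfb rose by 0.27 on the log2 scale (limma adjusted p = 0.0191), a call lost without the third CORT or the first vehicle library (up to 0.0653). The thymosins, which hold actin monomers in reserve, did not move together. Tmsb10 fell by 0.30 on the log2 scale (limma adjusted p = 0.0221), lost without the first or second CORT library (up to 0.0611), and Tmsb4x rose by 0.22 (limma adjusted p = 0.0384), lost without 5 of the 6 libraries (up to 0.105), as was the rise of the cofilin phosphatase Ssh2 (log2 fold change 0.30, limma adjusted p = 0.0401, up to 0.109). With a trend on GC content removed, the calls of Tmsb10, Tmsb4x and Ssh2 were lost as well (limma adjusted p = 0.0712, 0.371 and 0.117).

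**Figure D3:**
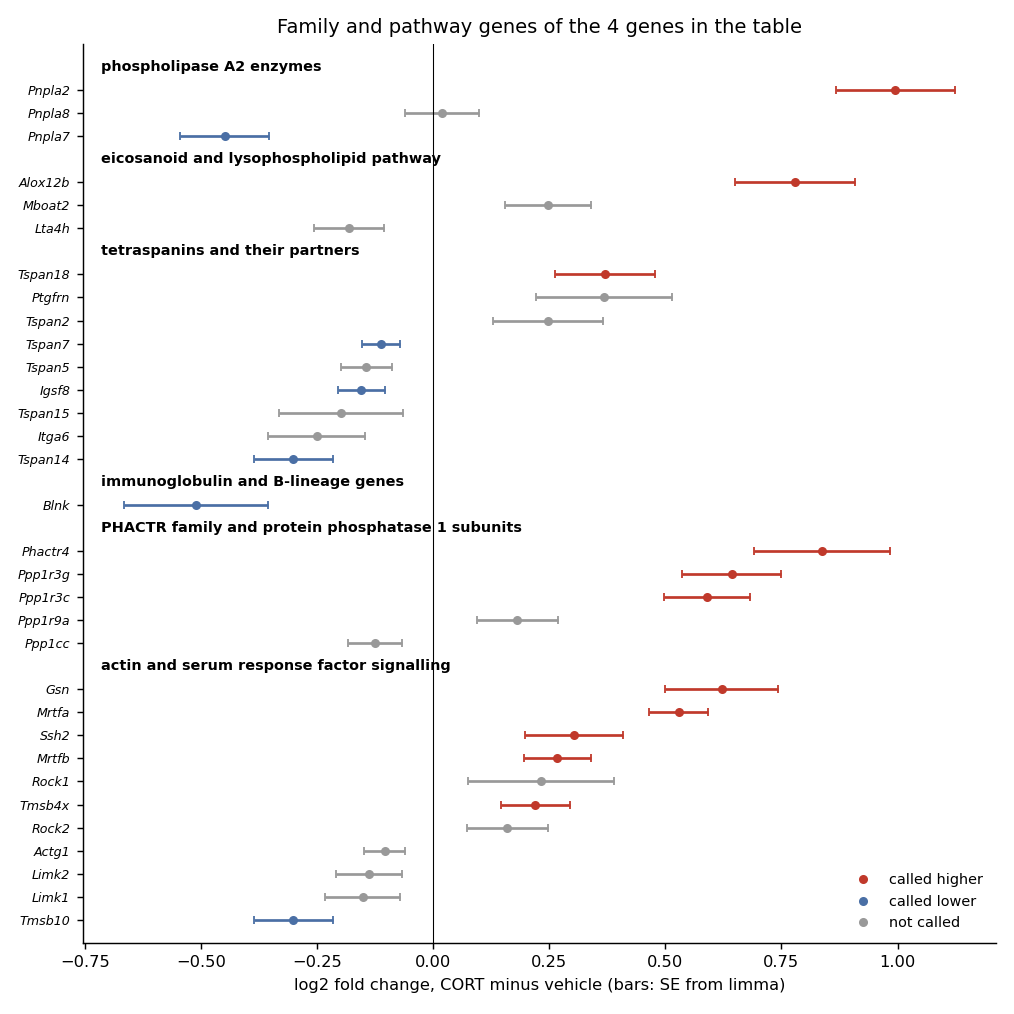
Log2 fold change of CORT over vehicle (horizontal axis, points) with its SE from limma (bars) for the genes of the 6 lists that are in the table, grouped by list, in red where called higher, blue where called lower and grey where not called. Phactr4 at 0.84, Pnpla2 at 1.00 and Alox12b at 0.78 lie furthest to the right, and the tetraspanins lie between -0.30 and 0.37.

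The place of the 4 genes in the genome was read from annotations of the earlier mouse build GRCm38, while the authors used GRCm39. Pla2g3 lies on chromosome 11, Tspan4 on chromosome 7, Ighm on chromosome 12 and Phactr3 on chromosome 2. Of the 40 nearest protein-coding genes, 5 on each side of each, only 5 were in the table. Inpp5j, an inositol polyphosphate 5-phosphatase gene beside Pla2g3, rose. It was at 68.31, 63.84 and 62.36 TPM in the CORT libraries, against 49.79, 45.99 and 49.26 TPM in the vehicle libraries (log2 fold change 0.42, SE 0.07, limma adjusted p = 0.00241). Exons of Inpp5j and Pla2g3 share 401 bases on opposite strands, 8.54% of the exonic bases of Pla2g3. The methods mention an orientation mode for the alignment but not whether strand was used in quantification. Without strand, reads from the shared bases cannot be told apart. Exons of Tspan4 overlap those of Chid1 by 292 bases on the opposite strand, 13.4% of its exonic bases, and Chid1 was not analysed here. Pik3ip1 and Limk2, also near Pla2g3, missed the threshold with log2 fold changes of -0.13 and -0.14. No neighbour of Phactr3 was listed, and of the neighbours of Ighm only Crip2, a LIM-domain protein gene, was, with 111 ± 6.03 TPM in CORT and 130 ± 13.7 TPM in vehicle (SD, n = 3 each, log2 fold change -0.23). Crip2 passed the test as lower, but not without any 1 of 4 libraries (limma adjusted p up to 0.108), and with the GC trend removed its log2 fold change was -0.07 (limma adjusted p = 0.405).

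The genes differ in annotated structure, which bears on TPM because the level is divided by an estimated transcript length. The annotation holds 7 transcripts of 473 to 4858 bases for Phactr3, 6 of 373 to 1466 bases for Tspan4, 3 of 2566 to 2869 bases for Pla2g3 and 2 of 1493 to 1698 bases for Ighm. A shift in the mix of isoforms of Phactr3 or Tspan4 could therefore enter their TPM, and this was not tested. The GC content of the longest transcript was 45.7% for Phactr3, 51.8% for Ighm, 53.5% for Pla2g3 and 58.1% for Tspan4, around a median of 51.2%. Of the 200 tested genes nearest to Phactr3 in GC content, 66 passed as higher and 21 as lower, whereas of the 200 nearest to Tspan4, 30 passed as higher and 81 as lower. For Pla2g3 these numbers were 58 and 50, and for Ighm 50 and 57. With a smooth trend on GC content taken out of each library, the log2 difference of Phactr3 was 0.87 and that of Tspan4 was 1.68.

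Of the 4 genes, promoter windows in the RefSeq table (build GRCm38.p6, 250 bases before to 50 bases after the annotated start) were found for Tspan4, at 2 starts on the forward strand. They are shown with the window of Pnpla2, the only one of the 10 neighbours of Tspan4 in the table, also on the forward strand and also higher in CORT. Capitals mark the GC box (GGGCGG, or CCGCCC on the other strand), the motif of Sp1-type factors, a search added after the sequences had been seen.
Tspan4 start 1, chr7:141474986-141475285: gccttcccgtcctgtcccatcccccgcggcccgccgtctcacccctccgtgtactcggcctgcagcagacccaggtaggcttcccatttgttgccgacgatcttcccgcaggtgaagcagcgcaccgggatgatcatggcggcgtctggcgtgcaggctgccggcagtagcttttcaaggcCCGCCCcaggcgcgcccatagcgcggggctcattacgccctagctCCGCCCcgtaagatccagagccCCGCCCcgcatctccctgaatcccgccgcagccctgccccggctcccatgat
Tspan4 start 2, chr7:141476130-141476429: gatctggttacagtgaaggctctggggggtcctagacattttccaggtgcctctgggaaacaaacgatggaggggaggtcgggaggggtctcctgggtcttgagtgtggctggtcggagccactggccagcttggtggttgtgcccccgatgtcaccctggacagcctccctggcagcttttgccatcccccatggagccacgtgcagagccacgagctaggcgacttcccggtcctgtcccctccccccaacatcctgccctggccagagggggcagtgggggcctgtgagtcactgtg
Pnpla2, chr7:141454938-141455237: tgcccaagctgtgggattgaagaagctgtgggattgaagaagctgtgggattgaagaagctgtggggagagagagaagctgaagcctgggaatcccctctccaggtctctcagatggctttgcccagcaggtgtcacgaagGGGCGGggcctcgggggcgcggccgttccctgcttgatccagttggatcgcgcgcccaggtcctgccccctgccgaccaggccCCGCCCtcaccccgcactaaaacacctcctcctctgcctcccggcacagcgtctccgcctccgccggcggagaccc
The first Tspan4 window held 3 GC boxes and 29 CpG dinucleotides, more CpG than 87.1% of the 32851 windows in the table, whose median was 7. The second Tspan4 window held no GC box and 8 CpG, and the Pnpla2 window held 2 GC boxes and 18 CpG. A GC box was present in 35.7% of all windows. The 6-base arm of the glucocorticoid response element, AGAACA or TGTTCT on either strand, was in none of these windows and in 19.0% of all windows. The full element, AGAACA, 3 bases and TGTTCT, was matched with at best 5 mismatches in the first Tspan4 window and 4 in the second and in Pnpla2, and 1.85% of all windows held it with up to 2. These letters being absent from these windows says nothing of receptor binding there or elsewhere.

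The differences of the 4 genes were also read under other settings. Since the groups of each gene did not overlap, leaving out a library could change the size of a difference but not its sign. Leaving out each library in turn gave log2 differences of 1.95 to 2.14 for Pla2g3, 1.52 to 1.65 for Tspan4, 1.45 to 1.79 for Ighm and 0.96 to 1.12 for Phactr3. Ighm moved most, highest without the first vehicle library and lowest without the third vehicle library. The order of Ighm and Tspan4 depended on the setting, with Tspan4 ahead after the GC trend was removed and without the first CORT, the second CORT or the third vehicle library, while Pla2g3 stayed first and Phactr3 last wherever they were measured.

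**Figure D4:**
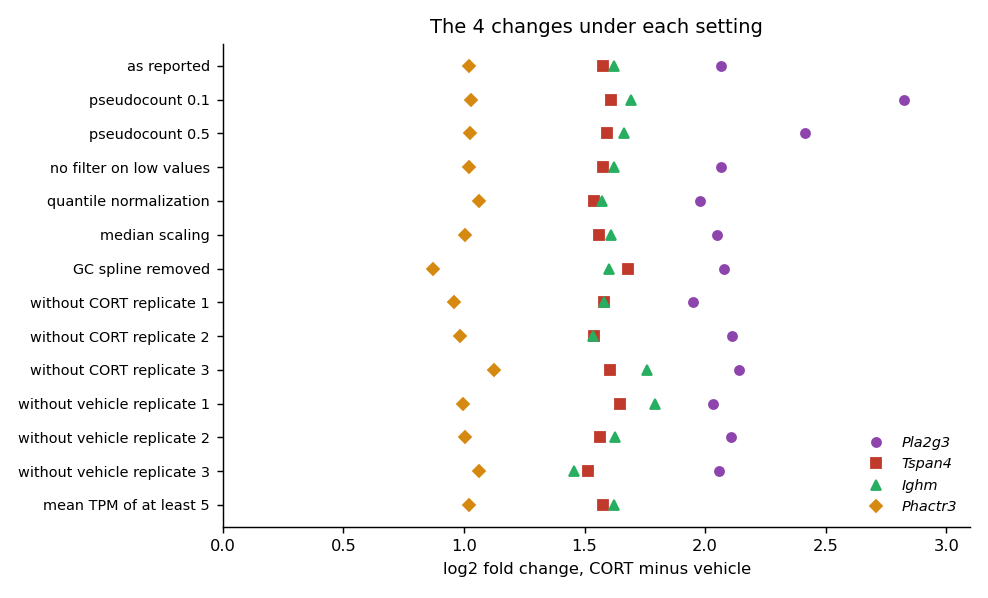
Log2 fold change of CORT over vehicle (horizontal axis, starting at 0) of Pla2g3, Tspan4, Ighm and Phactr3 under each setting (rows), with 1 symbol per gene. Pla2g3 depends on the pseudocount (2.07, 2.41 and 2.82) and has no point for a mean TPM of at least 5, whereas Phactr3 stays between 0.87 and 1.12.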

How the data were processed

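Hippocampal RNA of CORT and vehicle mice was sequenced by the authors from 3 TruSeq libraries per group as paired-end reads, which they trimmed with fastp. HISAT2, StringTie, RSEM and build GRCm39 are named in the submitters' processing notes, while tool versions and annotation are not given in the sources here. The deposited table holds TPM, computed by the authors, for 2404 genes that all have a deposited p-value under 0.05. Another 3 columns hold the authors' fold change, its log2 and p-value for CORT against vehicle, computed with DESeq2 on counts not analysed here, and none of their values is used. The control columns carry a wild-type name and were taken as vehicle, and replicates are numbered as in the table, which does not tie them to titles.

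TPM were analysed as log2(TPM + 1) with limma 3.58.1 in R 4.3.3 (lmFit, then eBayes, trend and robust) for the 2241 genes that reached 1 TPM in 3 or more libraries. Benjamini-Hochberg adjustment ran over these genes, and an adjusted p under 0.05 was called. The genes had already been selected on the same contrast in the same libraries. The adjusted p therefore does not bound the share of false calls. The count-based test of the study was not run, since the values are TPM. TPM carries no depth, so precision is known only from the 3 replicates per group.

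The 4 genes, the gene lists and the markers were chosen with earlier results of these data known. Other genes named were, from each list, up to 4 called genes with the smallest p and, where at most 4, those not called, the called genes next to each of the 4 genes in the order of log2 fold change, the 5 genes with the highest Pearson's r to each, and genes that overlap or neighbour them. Tmsb4x, Ssh2, Rock2 and the cell type markers named lie outside this rule and were chosen after their values were seen. Other genes with a large change that this rule names are left out where no result turns on them. Transcripts, GC content and exon overlaps were taken from GENCODE M21 and promoters and gene order from RefSeq, both of GRCm38, matched by gene identifier or symbol. Promoter windows were found for 1 of the 4 genes. Tables and figures were made with Python 3.11.15, pandas 2.3.3, numpy 2.4.6 and matplotlib 3.10.9. Alternatives were pseudocounts of 0.1 and 0.5, no filter, a mean TPM of at least 5, quantile normalization, median scaling, removal of a GC spline with 4 degrees of freedom, eBayes without trend and robust options, and leaving out each library.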

Additional observations from a re-analysis of the deposited data

How the results depend on the processing

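The log2 differences of the 4 genes stayed positive under every alternative run, but the genes were chosen for large rises, so nothing is read from this. That of Pla2g3 was 2.82 with a pseudocount of 0.1 and 2.41 with 0.5. With the GC trend removed Phactr3 was at 0.87 and Tspan4 at 1.68, against 1.02 (SE 0.09) and 1.57 (SE 0.08) without this step. Pla2g3 could not be measured at a mean TPM of at least 5. Leaving out 1 library at a time, Pla2g3 gave 1.95 to 2.14, Tspan4 1.52 to 1.65, Ighm 1.45 to 1.79 and Phactr3 0.96 to 1.12. Over all tested genes 579 were higher and 554 lower, against 338 to 729 higher and 282 to 464 lower with 1 library left out, fewest without the first vehicle library. Over the 6 lists together 11 genes were higher and 6 lower, against 7 to 15 higher and 1 to 5 lower with 1 library left out. The lowest counts higher came without the third CORT or the first vehicle library, and the lowest counts lower without the first or second CORT library. Pnpla8, close to 0, turned negative with quantile normalization (-0.0189), with the GC trend removed (-0.206) and in the range of -0.0328 to 0.0731 over left-out libraries, and Rock2 with the GC trend removed (-0.0463). None of these was past the threshold, and the cause was not tested. Of 43 other genes refitted (those of the lists, those near the 4 genes in the genome or in the order of change, and the largest changes), 31 kept direction and call with the GC trend removed, 34 with quantile normalization and 36 with median scaling, and Lta4h passed the test as lower under all 3 (limma adjusted p = 0.00468, 0.0176 and 0.0327). No paired analysis was possible because the titles give the groups only 1 shared replicate number and the table's columns are not tied to the titles. Read depth is unknown.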
